A study of Penicillium oxalicum with 6 samples.

Results

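A total of 92 genes of the filamentous fungus Penicillium oxalicum had at least 8-fold less messenger RNA in a strain without the gene POX00158 than in the comparison strain, and are described here. They were chosen on the measured values: a Ku70 mean of 10 CPM or more, where Ku70 names the comparison strain and CPM is the count of a gene per 1000000 reads of its library, and a mean in the deletion strain, MuPOX00158, at least 8-fold lower. Of 9284 genes listed in at least 1 library, 6675 reached 10 CPM in Ku70, and 112 of these, or 1.68%, were 8-fold lower. Of the 112 genes, 20 were set aside by identifier, among them POX00158 itself, 5 single identifiers and 14 genes in long stretches of neighbouring identifiers, which leaves the 92. Because the fall in MuPOX00158 chose the genes, its size is given below as a description and not as a result of a test.

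RNA was sequenced from mycelium of both strains, with 3 libraries per strain. The labels call one strain a POX00158 mutant (MuPOX00158) and the other a Ku70 mutant (Ku70). Spores were grown for 6 d on potato-dextrose agar at 28 °C, and 1.0 g of hyphae then went into 100 mL of basic medium with Avicel, a powdered crystalline form of cellulose, and were shaken at 180 rpm for 24 h. The titles give 1% Avicel for both strains. Whether MuPOX00158 also lacks Ku70, whether each strain is 1 clone, and whether libraries of one strain are separate cultures is not stated in the labels, so the spread between libraries may be technical. Replicate numbers below follow the order of deposition. Replicates with the same number in both strains also share a letter (F, S or T) in their titles.

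Avicel is insoluble, and fungi that grow on it secrete enzymes that cut the chains into sugars small enough to be taken up. In such fungi the genes for secreted cellulases and xylanases, for sugar uptake and for many small secreted proteins are switched on together by cellulose, under transcription factors that answer to the available sugar. The series describes POX00158 as a phosphokinase, an enzyme of the kind that transfers phosphate groups to other molecules. Ku70 helps to rejoin broken DNA ends, and fungal strains that lack it are used because targeted gene replacement works more readily in them. The deposited tables name the genes by identifier only. None of the 9284 identifiers matched the RefSeq gene table of this species, so the 92 genes carry no product name here, no sequence or position is given, and they are ordered by level and by size of the fall rather than by function. For the same reason no marker gene of mycelium could be looked up.

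Libraries held 2983815 to 3259601 reads in all, over 8677 to 8750 listed genes. POX00158 had 1067, 569 and 763 reads in Ku70 replicates 1 to 3 and 4, 8 and 9 reads in MuPOX00158 replicates 1 to 3. The tables list no gene at 0, and a gene missing from a library was taken as having no read there. Ku70 replicate 1 differed most from its own group. Over the 6492 genes that had 20 reads or more in each of the 6 libraries, the chi-square per degree of freedom between 2 Ku70 libraries was 56.3 and 42.5 for pairs with replicate 1 and 18.8 for replicates 2 and 3, where counting error alone gives about 1. Among MuPOX00158 libraries it was 5.56 between replicates 1 and 3, and 18.7 and 20.9 for pairs with replicate 2. Members named below because of Ku70 replicate 1 or MuPOX00158 replicate 2 are given with their values in every library. Other members that depend on these libraries are given as counts.

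The 92 genes together took 3.66, 3.21 and 3.55% of the reads in Ku70 replicates 1 to 3 and 0.264, 0.350 and 0.226% in MuPOX00158 replicates 1 to 3. The means were 3.47 ± 0.238% and 0.280 ± 0.0635% (SD, n = 3 each). Within the pairs of libraries that share a letter, the summed level was 13.9-fold lower for F, 9.17-fold lower for S and 15.7-fold lower for T. In the S pair, the Ku70 library had the lowest share of its strain and the MuPOX00158 library the highest of its own. In bulk mycelium, fewer cells expressing a gene and less RNA per cell cannot be told apart. The 20 genes set aside accounted for 2.33 ± 0.786% of Ku70 reads and 0.0901 ± 0.0286% of MuPOX00158 reads (SD, n = 3 each).

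**Figure D1:**
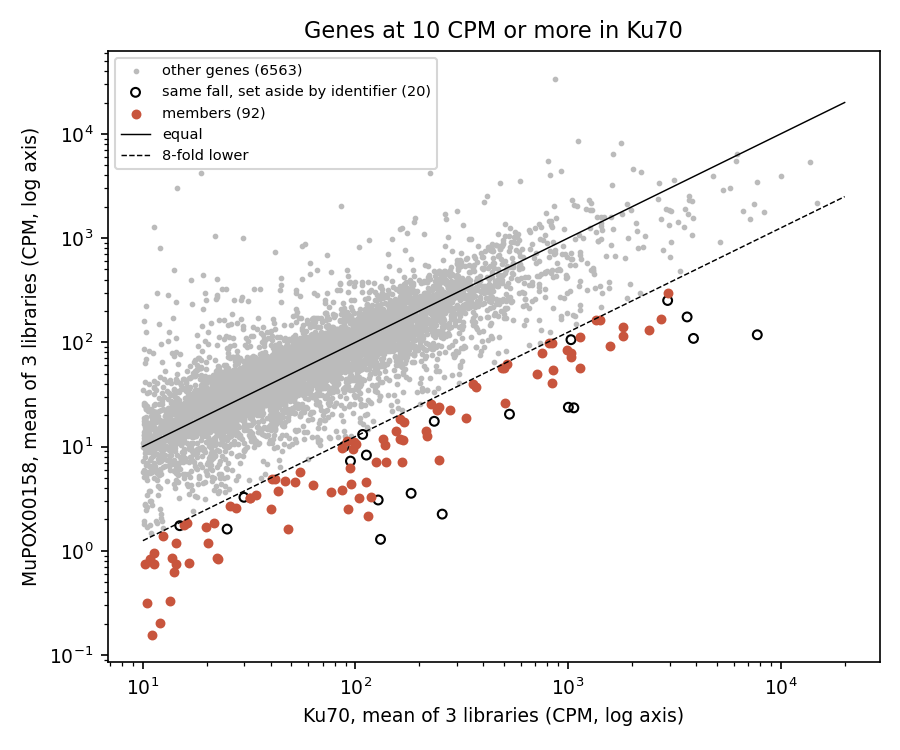
Mean CPM over 3 libraries in Ku70 (x axis) and MuPOX00158 (y axis), both log axes, for the 6675 genes at 10 CPM or more in Ku70. The 92 members (red) lie on or under the dashed 8-fold line over the whole range of Ku70 levels, next to the 20 genes set aside (open circles) and 6563 other genes (grey).

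The size of the fall ran from 8.10-fold to 70.1-fold, with a median of 13.0-fold. It was under 10-fold in 28 genes, from 10-fold to under 16-fold in 32, from 16-fold to under 32-fold in 23 and at least 32-fold in 9. By reads, 12 genes at 1000 CPM or more in Ku70 held 58.7% of the group's Ku70 level, 36 genes from 100 to 1000 CPM held 36.3%, and 44 genes from 10 to 100 CPM held 4.94%. The median fall was 13.7-fold, 13.0-fold and 12.6-fold in these 3 classes, so the typical fall was of a like size in weak and abundant members. In MuPOX00158, 8 members still averaged 100 CPM or more and 14 averaged under 1 CPM. Every member had at least 1 read in the MuPOX00158 libraries, although 9 were without a read in at least 1 of the 6 libraries.

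Of the 92 genes, 88 passed the read filter of the edgeR test across all genes. Of these, 87 were lower in MuPOX00158 at an adjusted p below 0.05, against 18.6% of 7757 tested genes. This count follows from how the genes were chosen. The exception was POX08880. The 4 genes not tested, POX06144, POX08496, POX08273 and POX09234, had 9, 4, 2 and 0 reads in Ku70 replicate 1. These counts lie under the filter's minimum count of 10, and all 4 genes had more reads in the other Ku70 libraries. The median log2 fold change of the 88 tested members was -3.67 and that of all tested genes 0.00029. In 86 members every MuPOX00158 library lay below every Ku70 library, which held for 22.2% of all genes at 10 CPM or more in Ku70. In 71 members the lowest Ku70 library was at least 4-fold above the highest MuPOX00158 library, against 1.84% of those genes. These counts too rest on the values that chose the genes.

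At the limits of the choice the values formed no gap. The 3 genes just inside the fold limit were POX06759 (8.10-fold lower), POX02847 (8.22-fold) and POX08826 (8.28-fold), and those just outside were POX08946 (7.86-fold), POX01610 (7.77-fold) and POX06398 (7.64-fold). POX02847 had 1353 CPM on average in Ku70 and 165 CPM in MuPOX00158, with 4242, 4061 and 4443 reads against 610, 476 and 437 reads. POX06759 had 343, 150 and 366 reads in Ku70 and 46, 24 and 34 reads in MuPOX00158. At the level limit, POX09234, POX08496 and POX05795 lay just inside at 10.2, 10.5 and 10.8 CPM in Ku70. POX06317, POX02448 and POX02502 lay just outside at 9.15, 9.13 and 8.67 CPM, with falls of 13.9-fold, 42.7-fold and 8.69-fold.

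Per length, some members were among the leading transcripts of Ku70. Levels per length were taken on the FPKM scale (fragments per kilobase of gene and per 1000000 reads). The median rank in Ku70 was 1836 for the members and 3349 for all genes at 10 CPM or more in Ku70. Of the members, 11 ranked within the 100 highest genes of Ku70. None did in MuPOX00158, where the same 11 ranked between 346 and 2059. This drop in rank rests on the values that chose the genes. The highest was POX04781, with 3869, 5792 and 5373 FPKM in Ku70 replicates 1 to 3 and 373, 341 and 234 FPKM in MuPOX00158 replicates 1 to 3. The libraries of the strains were far apart, and the gene moved from rank 14 to rank 507. POX03711 followed with 4712, 4062 and 5212 FPKM in Ku70 and 398, 619 and 407 FPKM in MuPOX00158. It had the most reads of the group in Ku70, 2941 ± 344 CPM (SD, n = 3), and at 299.9 CPM also the most in MuPOX00158, so that its fall was only 9.81-fold.

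POX08030 had the lowest spread in Ku70 of the 12 members with the highest FPKM, with 3996, 3502 and 3615 FPKM in Ku70 and 209, 275 and 201 FPKM in MuPOX00158. Its level was 16.2-fold lower. POX06231 had 4708, 2312 and 2774 FPKM in Ku70 and 335, 253 and 173 FPKM in MuPOX00158. In that gene Ku70 replicate 1 was the high library. POX08906 had 3830, 2229 and 2913 FPKM against 174, 150.1 and 120.4 FPKM, and POX03782 had 2467, 1556 and 1997 FPKM against 111, 89.2 and 92.5 FPKM. Both dropped by more than 20-fold (20.1-fold and 20.5-fold in CPM), the largest falls among the 12 members with the highest FPKM.

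In POX08307 the MuPOX00158 libraries were uneven. It had 3035, 1764 and 2605 FPKM in Ku70 and 246, 490.4 and 119 FPKM in MuPOX00158, where replicate 2 was the highest. In POX03085 replicate 2 was instead the lowest MuPOX00158 library, with 184, 56.0 and 155 FPKM against 1346, 805 and 1261 FPKM in Ku70. POX07378 had 61.1, 183 and 66.8 FPKM in MuPOX00158 and 1968, 1134 and 1361 FPKM in Ku70, again highest in MuPOX00158 replicate 2. POX01218 had 1604, 1175 and 1458 FPKM in Ku70 and 64.2, 98.5 and 81.8 FPKM in MuPOX00158. The remaining genes of the 12, POX08826 and POX09040, were low in Ku70 replicate 1. POX09040 had 374, 2448 and 2092 FPKM in Ku70 and 94.3, 134 and 79.4 FPKM in MuPOX00158, and POX08826 had 777, 2404 and 2175 FPKM against 198, 279.8 and 166 FPKM. In all 12 genes every MuPOX00158 library lay below every Ku70 library, against 22.2% of all genes at 10 CPM or more in Ku70. That count rests on the values that chose the genes. Ku70 replicate 2 was the lowest Ku70 library in 9 of the 12 genes and in 50 of all 92 members. No such count was made over all genes.

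**Figure D2:**
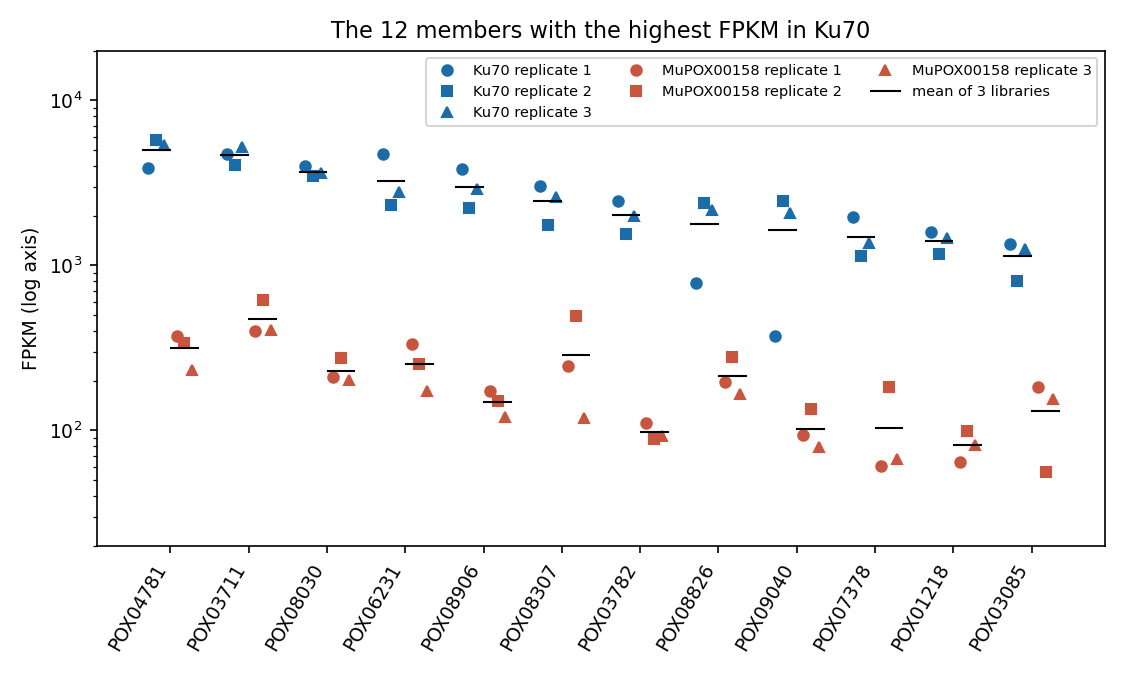
FPKM (log axis) of the 12 members with the highest mean FPKM in Ku70, for 3 Ku70 libraries (blue) and 3 MuPOX00158 libraries (red); horizontal lines are means. In each gene all red symbols lie below all blue ones, which by CPM held for 22.2% of all genes at 10 CPM or more in Ku70. The choice of genes used these values. The smallest distance is in POX08826, whose Ku70 replicate 1 is at 777 FPKM and MuPOX00158 replicate 2 at 279.8 FPKM.

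The leading members were short genes. A gene's effective length, worked out from its deposited count and its FPKM, was under 1000 bases in 10 of the 11 members within the 100 highest FPKM values, with a median of 523 bases. Short genes were common at that level in general: of all 100 genes, 64 were under 1000 bases and the median was 731 bases. Over the whole group, lengths ran from 274 bases (POX05998) to 9603 bases (POX03931), and the median of 1227 bases compares with 1343 bases over all genes at 10 CPM or more in Ku70. Lengths over 3000 bases were found in 8.70% of members and 9.42% of those genes. Ranks by reads therefore differ from ranks by FPKM: POX05360, with an effective length of 5304 bases, had the third-highest read count of the group, with 9032, 6286 and 7334 reads in Ku70 and 301, 631 and 306 reads in MuPOX00158, but only 455 FPKM in Ku70. POX05360 was chosen for mention after its values were seen.

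The 10 deepest falls were found in genes between 10.5 and 248 CPM in Ku70. POX06964 had 512, 247 and 314 reads in Ku70 and 7, 6 and 7 reads in MuPOX00158, which is 115 ± 46.9 CPM against 2.16 ± 0.277 CPM (SD, n = 3 each) and a 53.0-fold lower mean. POX05580 had nearly the same value in all libraries of a strain, 242, 253 and 247 CPM in Ku70 and 6.03, 7.67 and 8.51 CPM in MuPOX00158, a 33.4-fold lower level. Its coefficient of variation in Ku70, 0.0234, was the lowest of the group. POX06528 had 369, 274 and 474 reads against 13, 8 and 9 reads (36.5-fold), and POX08890 had 326, 266 and 280 reads against 3, 15 and 6 reads (36.7-fold). POX08852 had 59, 435 and 492 reads against 7, 15 and 8 reads, so that its 32.5-fold fall is carried by Ku70 replicates 2 and 3. POX01379 had 208, 96 and 146 reads in Ku70 and 7, 5 and 3 reads in MuPOX00158 (29.6-fold).

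Another 4 of the 10 deepest falls rest on 3 reads or fewer over all MuPOX00158 libraries, and their size is poorly fixed. POX09580, the gene with the largest ratio, had expected counts of 35.4, 31.1 and 37.0 in Ku70 and 0, 1 and 0.5 in MuPOX00158. It was the only member with fractional counts, so its values are less certain than whole read counts. With counts rounded and pooled over libraries it was 51.3-fold lower, with an exact 95% interval of 13.8-fold to 429-fold that covers counting error only. POX06144 had 9, 60 and 46 reads in Ku70 and 0, 2 and 0 reads in MuPOX00158 (pooled 56.7-fold lower, interval 15.3-fold to 474-fold). POX00848 had 50, 37 and 39 reads against 1, 0 and 2 reads (41.4-fold, 13.9-fold to 204-fold), and POX08496 had 4, 55 and 41 reads against 0, 2 and 1 reads (32.9-fold, 10.9-fold to 162-fold). The order of these 4 genes among the deepest falls cannot be read from so few reads. By comparison, the interval for POX06964 was 34.1-fold to 87.0-fold.

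The spread among the Ku70 libraries was wide in part of the members. It is not independent of the choice of genes, because both limits use the mean of the same 3 Ku70 values and a single high library can bring a gene over them. The coefficient of variation over the 3 Ku70 libraries had a median of 0.274 in the members and 0.195 in all genes at 10 CPM or more in Ku70. It exceeded 0.5 in 24 members, or 26.1%, and in 5.26% of those genes. Departures went both ways. Ku70 replicate 1 lay under 0.5 times the mean of the other Ku70 libraries in 17 members (18.5%), against 6.76% of all genes at that level, and over 2 times that mean in 10 members (10.9%), against 2.56%. Without Ku70 replicate 1, 14 members no longer met the rule, so these shares are descriptions.

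The 6 members with the widest spread show both directions. POX08273 had 0.653, 7.80 and 41.2 CPM in Ku70 replicates 1 to 3 and 0.670, 0.307 and 1.31 CPM in MuPOX00158 replicates 1 to 3, so its fall came from Ku70 replicate 3 above all. POX08880 had 15.99, 709 and 345 CPM in Ku70 and 21.8, 80.1 and 16.4 CPM in MuPOX00158. Ku70 replicate 1 of that gene was thus below every library of the deletion strain. POX05818 had 11.4, 198 and 84.6 CPM in Ku70 and 4.69, 24.2 and 3.93 CPM in MuPOX00158. Its Ku70 replicate 1 lay within the range of the deletion strain. POX09234 had no read in Ku70 replicate 1, 20.3 and 10.5 CPM in replicates 2 and 3, and 1.01, 1.23 and 0 CPM in MuPOX00158. POX03666 and POX06901 were instead high in Ku70 replicate 1. POX03666 had 278, 55.5 and 42.1 CPM in Ku70 and 4.69, 9.82 and 6.88 CPM in MuPOX00158, and POX06901 had 171, 43.1 and 15.8 CPM against 1.68, 7.36 and 1.96 CPM.

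**Figure D3:**
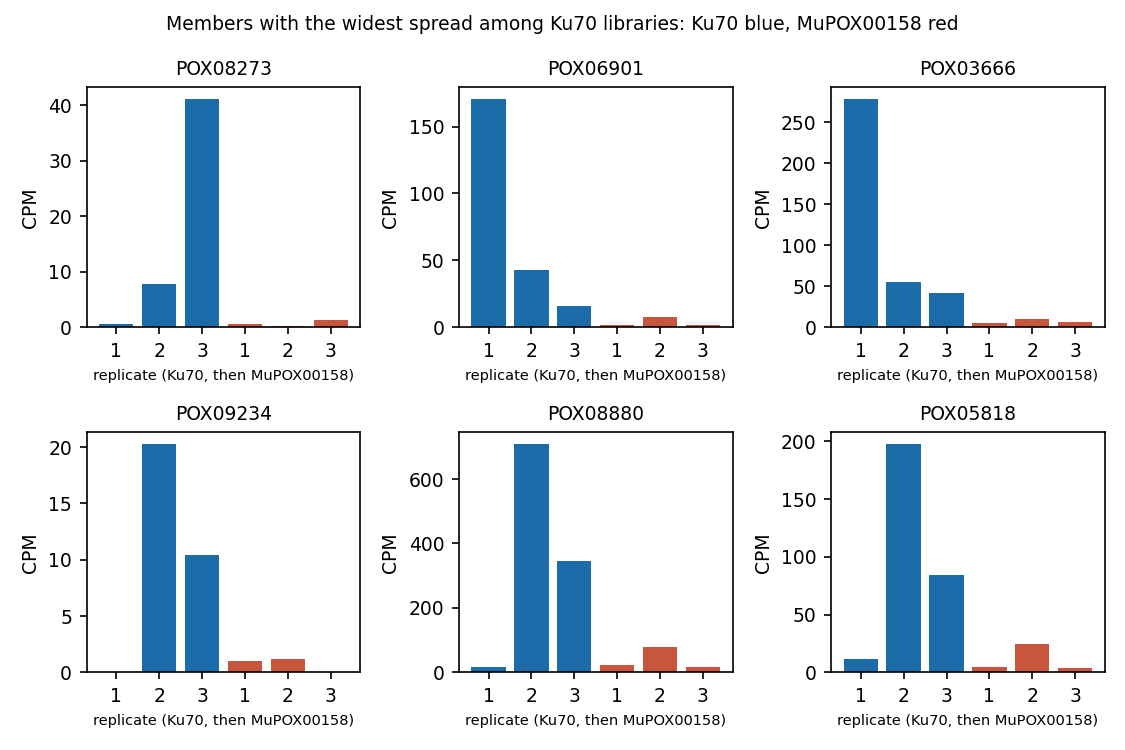
CPM in each library for the 6 members with the highest coefficient of variation among Ku70 libraries; bars are single libraries, Ku70 replicates 1 to 3 in blue and MuPOX00158 replicates 1 to 3 in red, each panel with its own axis from 0. In POX08880 the first blue bar (15.99 CPM) is below the second red bar (80.1 CPM), whereas in POX03666 and POX06901 the first blue bar is the highest.

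In 6 members the strains overlapped, and all 6 were among the 17 genes low in Ku70 replicate 1: POX08273, POX09234, POX08880, POX05818, POX00694 and POX01926. POX01926 had 8.16, 243 and 152 CPM in Ku70 and 6.37, 25.8 and 3.60 CPM in MuPOX00158. POX00694 had 0.979, 72.1 and 47.5 CPM in Ku70 and 0.670, 5.52 and 1.31 CPM in MuPOX00158. Without Ku70 replicate 1 the median fall of the 17 genes was 20.7-fold instead of 14.4-fold. For the 10 genes high in Ku70 replicate 1 it was 7.33-fold instead of 14.5-fold, and 6 of them were then under 8-fold lower, among them POX01612 at 6.02-fold and POX03007 at 5.46-fold. The direction of both shifts was fixed in advance, because the genes were classed by Ku70 replicate 1. POX01612 had 565, 122 and 146 CPM in Ku70 against 24.1, 22.4 and 20.3 CPM in MuPOX00158, so its strains did not overlap. POX03007 had 321, 79.0 and 108 CPM in Ku70 against 19.1, 17.2 and 15.1 CPM in MuPOX00158. These genes, apart from those with the widest spread and those named for their identifiers, were singled out after their values were seen.

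Among the MuPOX00158 libraries, replicate 2 held the most residual expression. It was the highest MuPOX00158 library in 55 of 92 members (59.8%), with 24 for replicate 1 and 13 for replicate 3. Over all genes at 10 CPM or more in Ku70, replicate 2 was the highest in 32.7%. To limit counting error, the comparison was repeated for the 65 members with at least 30 reads over the MuPOX00158 libraries. In 30 of them (46.2%) replicate 2 was over 1.5 times the mean of the other MuPOX00158 libraries, against 6.81% of all genes at 10 CPM or more in Ku70 with as many reads, and in 3 it was as far below. With at least 100 reads the share was 42.5% of 40 members against 6.15%. The members have fewer reads in MuPOX00158 than most genes, and the part of counting error in this difference was not tested. The 20 genes set aside, which also fell at least 8-fold, together took 0.0665, 0.122 and 0.0820% of the reads in MuPOX00158 replicates 1 to 3. Their summed level was thus highest in replicate 2 as well.

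Members low in Ku70 replicate 1 were mostly high in MuPOX00158 replicate 2, and so were other genes low in Ku70 replicate 1. Of the 11 such members with at least 30 reads in MuPOX00158, replicate 2 was the highest MuPOX00158 library in all 11, with a median of 1.85 times the mean of the other libraries and a range of 1.42 to 5.62 times. In the 46 members whose Ku70 replicate 1 lay between 0.5 and 2 times the others, it was the highest in 27, with a median of 1.26 times. In the 8 members whose Ku70 replicate 1 was over 2 times the others, it was the highest in 4, with a median of 1.37 times. Over all genes at 10 CPM or more in Ku70 with as many reads in MuPOX00158, replicate 2 was the highest in 65.3% of 444 genes low in Ku70 replicate 1, 29.8% of 6009 between the limits and 47.9% of 169 high in Ku70 replicate 1. The link between these libraries was thus also present outside the group. POX06312 is an example, with 295, 1042 and 811 CPM in Ku70 and 26.5, 102 and 21.3 CPM in MuPOX00158. POX01470 is another, with 564, 1208 and 1201 CPM against 56.3, 156 and 43.2 CPM. Both were chosen for mention after their values were seen. Replicate 2 of each strain carries the letter S and replicate 1 the letter F, and what the letters stand for is not stated in the labels.

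**Figure D4:**
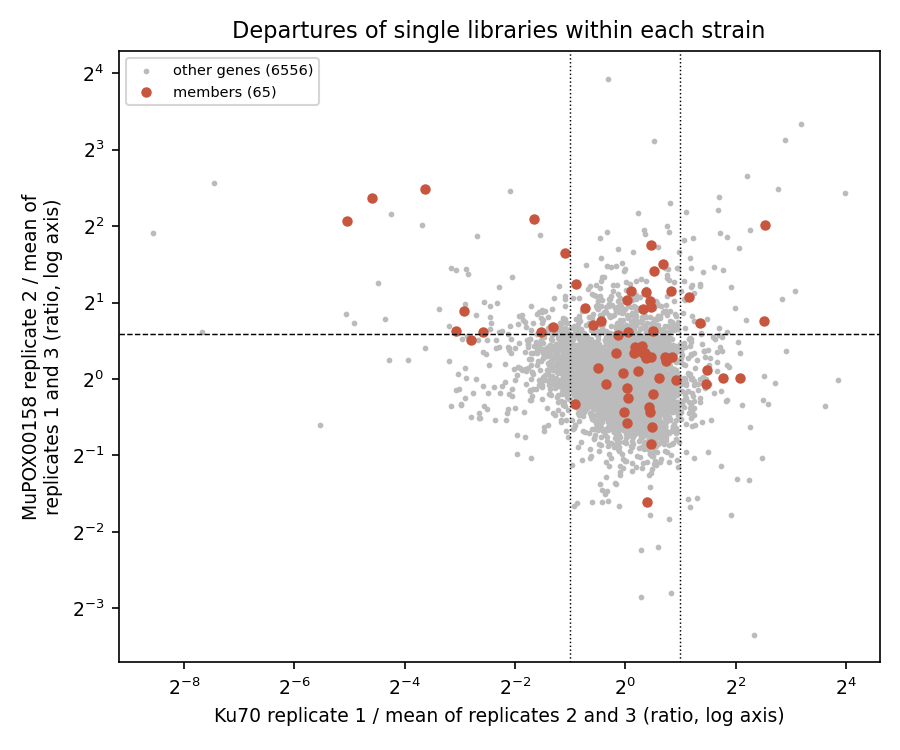
Ku70 replicate 1 over the mean of Ku70 replicates 2 and 3 (x axis) against MuPOX00158 replicate 2 over the mean of MuPOX00158 replicates 1 and 3 (y axis), ratios of CPM on log axes, for 65 members (red) and 6556 other genes (grey) with at least 30 reads in MuPOX00158 and a read in Ku70 replicate 1. Dotted lines mark 0.5 and 2 times, the dashed line 1.5 times; the 11 members left of the first dotted line lie between 1.42 and 5.62 on the y axis.

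Within the pairs of libraries that share a letter, the counts restate values that the choice of genes used, pair by pair. In the F pair 89 members were lower in MuPOX00158, against 48.7% of all genes at 10 CPM or more in Ku70, and 74 were at least 8-fold lower, against 1.96%. The S pair had 92 lower members (background 45.7%), 61 of them by at least 8-fold (1.36%), and the T pair had 92 (47.9%) and 86 (2.35%). The 3 members that were not lower in the F pair were all low in Ku70 replicate 1. A fall of at least 4-fold in all 3 pairs was found in 79 members, against 2.32% of all genes at that level, and one of at least 8-fold in all 3 pairs in 43, against 0.824%.

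Along the identifier numbers, the median distance from a member to the nearest other member was 27.5 identifiers, after the long falling stretches had been set aside. Another member within 2 identifiers was found for 12 members, in 6 pairs. No comparison with the distances of other genes was made. Identifier order is not shown by the sources used here to be gene order on a chromosome. Some genes next to a member were lower as well. Of 110 adjoining identifiers outside the group with at least 10 CPM in Ku70, 32 (29.1%) were at least 2-fold lower in MuPOX00158, against 11.7% of 6583 genes outside the group at that level. At least 2-fold higher were 9 of them (8.18%), against 7.30% of all genes at 10 CPM or more in Ku70. These shares are descriptions, with no test over genes.

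POX07482 and POX07483 began a group of 4 identifiers with steady values. POX07482 had 93.0, 86.1 and 80.1 CPM in Ku70 and 10.1, 11.4 and 7.86 CPM in MuPOX00158, and POX07483 had 31.3, 36.8 and 33.6 CPM against 3.02, 3.99 and 3.27 CPM. The next identifiers, POX07484 and POX07485, fell just short of the limit at 7.02-fold and 7.04-fold lower. On either side of these 4 genes, POX07481 was 1.29-fold lower and POX07486 had 125 CPM in Ku70 and 169 CPM in MuPOX00158. Lower levels were found again beyond POX07486, with POX07488 at 404 ± 76.2 CPM in Ku70 and 89.6 ± 6.75 CPM in MuPOX00158 (SD, n = 3 each) and POX07490 2.18-fold lower. Likewise POX01379 and POX01381 (14.03 ± 1.99 CPM in Ku70 and 0.620 ± 0.808 CPM in MuPOX00158, SD, n = 3 each) were followed by POX01382, which was 7.22-fold lower but at 7.55 CPM in Ku70 lay under the level limit. POX01380, between them, was 1.76-fold lower.

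Members of a pair did not always share their pattern over the libraries. POX05795 and POX05796 did: both were highest in Ku70 replicate 1, with 19.9, 6.24 and 6.34 CPM and with 50.3, 21.2 and 23.8 CPM. In MuPOX00158 they had 0.335, 2.15 and 0 CPM and 2.68, 4.91 and 1.96 CPM. POX06963 and POX06964 were also both highest in that library, POX06963 with 26.1, 16.9 and 22.2 CPM in Ku70 and 2.68, 1.53 and 1.31 CPM in MuPOX00158. POX00693 and POX00694 were both highest in Ku70 replicate 2, but POX00693, with 103, 205 and 105 CPM in Ku70 and 9.38, 13.8 and 7.53 CPM in MuPOX00158, kept its level in replicate 1 while POX00694 was at 0.979 CPM there. POX05376 and POX05378 ran opposite to each other over the Ku70 libraries, but not over the MuPOX00158 libraries. POX05376 had 12.4, 29.0 and 18.1 CPM in Ku70 and 1.34, 3.07 and 0.655 CPM in MuPOX00158, whereas POX05378 had 875, 254 and 375 CPM in Ku70 and 50.6, 59.8 and 59.9 CPM in MuPOX00158.

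Departures of Ku70 replicate 1 also reached adjoining genes outside the group. POX01927, next to POX01926, had 2.61, 523 and 395 CPM in Ku70 and 13.1, 91.1 and 17.7 CPM in MuPOX00158, with a 7.56-fold lower mean. In both genes Ku70 replicate 2 was the highest and replicate 1 the lowest Ku70 library, and MuPOX00158 replicate 2 was the highest MuPOX00158 library. POX08782 had 75.7, 1144 and 738 CPM in Ku70 and 89.1, 112 and 79.6 CPM in MuPOX00158 (6.98-fold). Its neighbour in the group, POX08783, went the other way, with 165, 77.1 and 42.8 CPM in Ku70 and 5.36, 4.29 and 3.60 CPM in MuPOX00158. These adjoining genes were chosen for mention after their values were seen.

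Several members lay between POX08880 and POX08906, where 5 of the 17 genes at 10 CPM or more in Ku70 were members: POX08880, POX08890, POX08897, POX08902 and POX08906. A further 3 of the 17 genes were at least 2-fold lower, and 1, POX08881, was at least 2-fold higher, at 25.2 ± 3.22 CPM in Ku70 and 146 ± 27.7 CPM in MuPOX00158 (SD, n = 3 each). POX08902 had 20.2, 23.7 and 22.8 CPM in Ku70 and 0.335, 0.920 and 1.31 CPM in MuPOX00158, a 26.0-fold lower level. POX08897 had 567, 322 and 584 CPM in Ku70 and 29.5, 65.7 and 74.3 CPM in MuPOX00158 (8.69-fold), and its neighbour POX08898 was 7.38-fold lower from 10.9 CPM in Ku70. In all, 8 of the 17 genes were at least 2-fold lower, against 12.9% of all genes at 10 CPM or more in Ku70. Of all those genes, 1.68% were at least 8-fold lower. Little-changed genes also lay here: POX08889, next to POX08890, was 1.66-fold lower at 112 CPM in Ku70. On the other side of POX08890, POX08891 was 2.54-fold lower. The stretch was chosen after its values were seen.

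**Figure D5:**
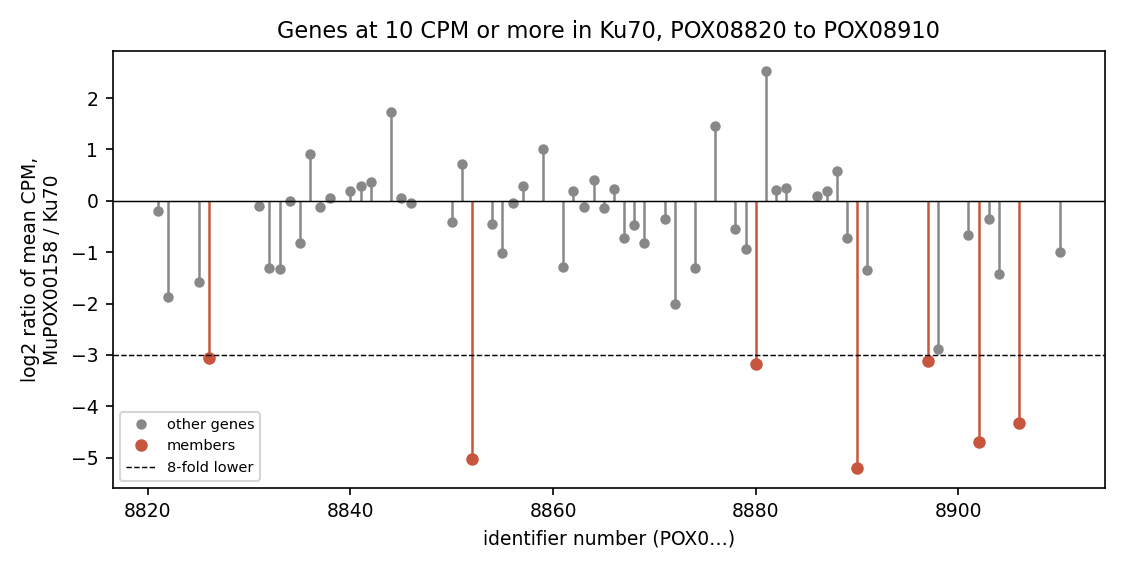
Log2 ratio of mean CPM, MuPOX00158 over Ku70 (y axis), against identifier number (x axis) for the 59 genes at 10 CPM or more in Ku70 from POX08820 to POX08910; members in red, other genes in grey, dashed line at 8-fold lower. The 7 members lie among other genes, some near 0 and some lower. Of the 59 genes, members included, 19 are at least 2-fold lower, against 12.9% of all genes at 10 CPM or more in Ku70. The range was chosen after its values were seen.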

How the data were processed

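The authors deposited 1 table per library with an expected count (reads assigned to a gene by probability) and an FPKM value (scaled to gene length and library size) for each gene, per the file headers. The submitters' processing notes name BWA 0.7.10-r789, RSEM 1.2.12, DESeq2 and Bowtie2 2.1.0 but not what each did. Strandedness, annotation and genome build: not given in the sources used here. CPM is the expected count over the library total, without length correction. Groups follow the strain label.

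Expected counts were rounded and compared between strains in R 4.3.3 with edgeR 4.0.16 (filterByExpr with a minimum count of 10 and total of 15, TMM scaling, quasi-likelihood test, Benjamini-Hochberg adjustment over all tested genes at 0.05), after a check on simulated data. Alternatives used DESeq2 1.42.0 and limma 3.58.1 on log2(FPKM + 1) and log2(FPKM + 0.1) for genes with a mean of at least 1 FPKM. Effective length is the median over libraries of count over FPKM and library total. Intervals cover counting error only.

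Libraries that share a letter deviated together from their strain's mean over genes at 10 CPM or more in Ku70 (log2(CPM + 1), Pearson r 0.166, 0.242 and 0.202 for F, S and T, against -0.206 to 0.0285 for other letters). Over the members alone, r was 0.209, 0.433 and 0.00124 for F, S and T, against -0.323 to 0.206 for other letters. The T pair thus showed no such link in the members. Deviations from one mean are not independent of each other. The letter was used as a block in an alternative fit. The block left 87 members lower, as did the fit without it.

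Genes were named by rule: the 12 members with the highest FPKM and the 10 with the largest fall, the 6 with the widest spread in Ku70, 3 on each side of each limit, members with fractional counts, and members within 2 identifiers of each other. The members and lists were chosen with earlier results of these data known.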

Additional observations from a re-analysis of the deposited data

How the results depend on the processing

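A limit of 6-fold instead of 8-fold gave 141 genes, and a limit of 10-fold gave 64. The other planned settings gave 75 (20 CPM minimum) to 126 genes (1 CPM minimum), with 96 under TMM or DESeq2 scaling. The deposited FPKM, with a minimum of 10 FPKM instead of 10 CPM, gave 95 genes, of which 84 were members. Every member was at least 8.1-fold lower in FPKM, so the members lost there lay under the changed level minimum. Leaving out 1 library gave 84 (without MuPOX00158 replicate 3) to 112 genes (without MuPOX00158 replicate 2). Of the members, 61 met the rule with every library left out in turn, and 14 were lost without Ku70 replicate 1. Without both Ku70 replicate 1 and MuPOX00158 replicate 2, a setting added after seeing the data, 111 genes met it, 82 of them members.

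The number of members called lower, 87, was 91 with DESeq2, 86 with limma, 87 with the replicate block and 84 to 92 with 1 library left out. POX08880 was called without Ku70 replicate 1 (edgeR adjusted p = 0.00246, against 0.0603). POX05818 and POX00694 were not called in 4 and 5 of the fits without 1 library, nor with limma, and POX05795 was not called without MuPOX00158 replicate 1; the cause was not tested. Of 468 comparisons for the named members tested in the main fit, 450 kept their side of the threshold and none reversed. POX06144, POX08496, POX08273 and POX09234, also among the 40 named members, were not tested there and were left out of these comparisons.

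The median log2 fold change of the members, -3.67, was -3.67 with the replicate block, -3.24 in limma with a pseudocount of 1 FPKM, which by construction shrinks the falls of weak genes, and -3.60 with a pseudocount of 0.1. It was -4.16 to -3.61 with 1 library left out, the lowest without MuPOX00158 replicate 2, and -4.19 without that library and Ku70 replicate 1. Members took 3.38 to 3.61% of the reads in Ku70 and 0.245 to 0.307% in MuPOX00158 with 1 library left out. Without POX03711 they took 3.18% in Ku70, less by construction.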

Other observations

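Genes outside the group came close to it in single libraries. Without MuPOX00158 replicate 2, 24 further genes met the 8-fold rule and 4 members were lost, among them POX03085, which was then 6.70-fold lower and whose MuPOX00158 replicate 2 was its lowest library. The mirrored rule, a mean of at least 10 CPM in MuPOX00158 and an 8-fold lower mean in Ku70 with the same identifiers set aside, held for 200 genes, against 92 for the fall. No test of this difference was made.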
